A study of Homo sapiens with 4 samples.

Results

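The HOX genes are the homeobox genes of the 4 HOX clusters, HOXA on chromosome 7, HOXB on chromosome 17, HOXC on chromosome 12 and HOXD on chromosome 2. A set of 38 of them was examined in HML58-3 cells, out of 25006 genes that could be named on the array. They were taken by symbol, through the RefSeq accession that the array design gives for each probe, and 44 probes were found for the 38 genes. One probe stood for each gene, the one with the highest mean signal over the arrays. The HOXA and HOXB clusters gave 10 genes each, and HOXC and HOXD gave 9 each.

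HML58-3 is a derivative of HCT116, a human colon cancer cell line, and carries a luciferase reporter under a methylated promoter that reports DNA demethylation. Cells were treated with mock, DAC (decitabine, an inhibitor of DNA methyltransferases), OR-2003 or OR-2100, both prodrugs of DAC. The drugs were used at 1 μM from day 1, and total RNA was taken on day 5. Each condition was 1 array, 4 arrays in all, and all cells came from this 1 engineered line. No difference below therefore has a replicate check, no test was run, and all 3 comparisons share the mock array.

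HOX genes encode transcription factors that set identity along the head-to-tail axis of the embryo. Within a cluster they lie in order of their number, and genes with the same number in different clusters, the paralogues, are close relatives. Groups 1 to 3 act towards the head, groups 4 to 8 in the trunk and groups 9 to 13 towards the tail, and several stay on in the adult colon epithelium. Inactive HOX genes are held by Polycomb proteins, active ones carry marks laid by KMT2A and related enzymes, and in cancer cells CpG islands at HOX genes are often methylated. The products bind DNA together with TALE homeodomain partners such as PBX and MEIS proteins.

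CpG sites are where methylation by the target enzymes of DAC occurs, so sequence upstream of the start site is shown for 5 members. HOXD1 and HOXD13 were induced, HOXD4 and HOXD12 lie in the same cluster and were dim on every array, and HOXA9 was reduced. Each line gives 250 bases before the RefSeq start of the gene on GRCh38.p14, 5′ to 3′ on the strand of the gene, with each CG in capitals. CG reads the same on both strands.
HOXD1, chr2:176188418-176188667, plus strand: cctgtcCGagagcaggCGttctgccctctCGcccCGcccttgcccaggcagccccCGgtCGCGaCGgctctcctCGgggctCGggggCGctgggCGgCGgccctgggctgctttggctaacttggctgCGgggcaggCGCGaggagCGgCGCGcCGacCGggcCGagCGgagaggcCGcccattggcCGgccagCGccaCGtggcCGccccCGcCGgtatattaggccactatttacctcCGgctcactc
HOXD13, chr2:176092471-176092720, plus strand: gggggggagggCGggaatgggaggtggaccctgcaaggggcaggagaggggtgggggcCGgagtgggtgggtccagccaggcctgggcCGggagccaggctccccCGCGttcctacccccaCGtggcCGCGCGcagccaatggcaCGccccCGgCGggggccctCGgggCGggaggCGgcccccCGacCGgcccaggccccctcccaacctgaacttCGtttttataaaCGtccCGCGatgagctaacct
HOXD4, chr2:176151300-176151549, plus strand: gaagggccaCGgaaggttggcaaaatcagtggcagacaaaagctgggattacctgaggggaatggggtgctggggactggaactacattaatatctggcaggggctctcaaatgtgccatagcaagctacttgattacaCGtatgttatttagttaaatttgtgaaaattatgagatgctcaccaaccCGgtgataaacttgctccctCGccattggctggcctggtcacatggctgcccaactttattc
HOXD12, chr2:176099545-176099794, plus strand: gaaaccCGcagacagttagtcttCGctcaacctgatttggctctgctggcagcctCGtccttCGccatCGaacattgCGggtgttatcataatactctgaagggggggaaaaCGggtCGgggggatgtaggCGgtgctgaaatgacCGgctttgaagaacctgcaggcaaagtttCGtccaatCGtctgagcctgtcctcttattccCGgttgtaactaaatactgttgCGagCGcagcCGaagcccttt
HOXA9, chr7:27165538-27165787, minus strand: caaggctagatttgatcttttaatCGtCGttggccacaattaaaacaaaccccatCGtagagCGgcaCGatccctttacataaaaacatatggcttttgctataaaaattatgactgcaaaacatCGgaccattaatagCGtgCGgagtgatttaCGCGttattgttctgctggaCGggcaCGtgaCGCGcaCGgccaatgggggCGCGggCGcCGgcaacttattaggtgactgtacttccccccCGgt

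These windows held 31 CpG sites for HOXD1, 21 for HOXD13, 4 for HOXD4, 16 for HOXD12 and 20 for HOXA9. Members not shown did not follow this order. The reduced HOXA6, HOXA7 and HOXA11 held 27, 28 and 11, and HOXD8, lower with each drug, held 28. Over 27305 genes with such a window the median was 11 CpG sites, with quartiles of 3 and 23, and 93.6% of the windows held at least 1. A window was at hand for 20 of the 38 members only, too few for a comparison of the members as a set. A count of CpG sites is a description of sequence. The methylation of these windows was not analysed here.

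The level of a gene is given as log2 intensity, scaled so that the 75th percentile over the probes of an array is 0. As in the methods of the study, a level of -1 or more was regarded as positive expression. A gene was called induced if a drug raised it at least 2-fold, to -1 or more, and reduced if it was at least 2-fold lower with a drug and started from -1 or more on the mock array. A probe not well above background in mock cells has only an upper bound there, so its fold is given as "at least". Each HOX probe had 1 spot per array. Of 300 probes with 10 spots, 284 were well above background on all arrays. Among these a difference between single spots had an SD of 0.11 on the log2 scale. It covers spot noise only and not the spread between cultures, and it does not hold for dim values. The SD between spots of 1 probe was 0.08 for the 284 and 0.48 for 6 probes above background on no array. Values with drugs are given in the order DAC, OR-2003, OR-2100 unless a drug is named. Probes differ in brightness, so levels are compared between arrays and not between genes.

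On the mock array, 27 of the 38 HOX genes were well above background (71.1%, beside 67.8% of all named genes). At -1 or more were 22 (57.9%, beside 48.4%). The genes above background were 10 of 10 in HOXA, 9 of 10 in HOXB, 5 of 9 in HOXC and 3 of 9 in HOXD. Those at -1 or more were 9, 8, 4 and 1 in the same order. With each drug, 33 HOX genes were well above background (86.8%), beside 72.2%, 73.4% and 72.3% of all named genes with DAC, OR-2003 and OR-2100.

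**Figure D1:**
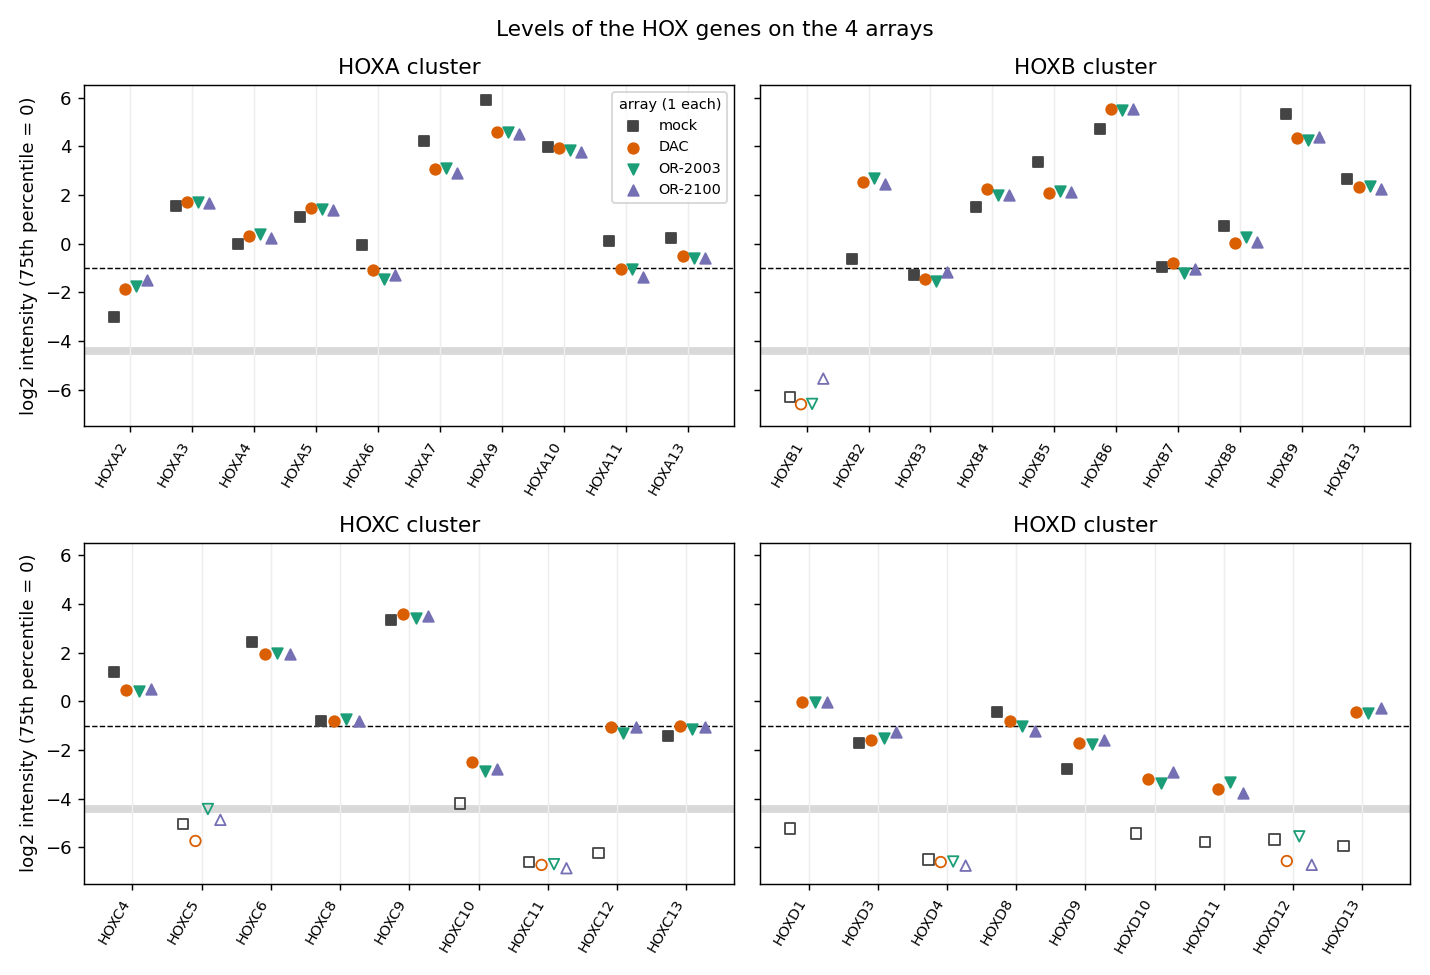
Level of each of the 38 HOX genes (vertical axis, log2 intensity with the 75th percentile of each array at 0) on the mock, DAC, OR-2003 and OR-2100 arrays, 1 point per array, by cluster in order of gene number. Filled points were well above background and open points were not, the dashed line marks -1, and the grey band spans the lowest signals well above background on the 4 arrays. HOXD1, HOXD13 and HOXC12 lie in the open points at the bottom on the mock array and near the dashed line or above it with all 3 drugs, while HOXA6, HOXA7, HOXA9 and HOXA11 are lower with all 3.

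HOX genes were induced by all 3 drugs in 3 of 38 cases and reduced by all 3 in 5 of 38. The induced genes were HOXB2 (on 1 of its 2 probes), HOXD1 and HOXD13, and the reduced genes were HOXA6, HOXA7, HOXA9, HOXA11 and HOXB5. The share induced was 7.89% of the HOX genes against 5.27% of all named genes. The share reduced was 13.2% against 5.21%. By drug, each of the 3 induced the same 3 HOX genes, where 5.77% of all named genes were induced with DAC, 5.89% with OR-2003 and 5.81% with OR-2100. DAC and OR-2100 reduced 5 HOX genes each and OR-2003 reduced 6, with HOXB9 as the additional gene, where 5.96%, 6.82% and 6.05% of all named genes were reduced with DAC, OR-2100 and OR-2003. With 3 and 5 genes, 1 gene more or less moves the share by a few percent.

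Only genes at positive expression in mock cells could be called reduced, which were 57.9% of the HOX genes and 48.4% of all named genes. Of the 22 HOX genes at -1 or more on the mock array, 5 were reduced by all 3 drugs (22.7%), against 10.8% of the 12106 named genes at that level. Of the 16 HOX genes under -1 on the mock array, 2 were induced by all 3 drugs (12.5%), against 6.73% of 12900 named genes. The scaling bears on the count of reduced genes. When the 75th percentile was taken over probes well above background, the split of induced to reduced by all 3 drugs was 3 to 1 instead of 3 to 5, and HOXA9 was the gene that was left. In that scaling 6.33% of all named genes were induced and 3.24% reduced. With 1 gene left, the higher share of reduced HOX genes was no longer seen.

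Over all 38 HOX genes the median log2 difference from the mock array was -0.01 with DAC, 0.09 with OR-2003 and 0.12 with OR-2100, beside -0.11, -0.09 and -0.23 over all named genes. Among the 27 HOX genes well above background on all arrays, 12 were higher and 13 were lower with all 3 drugs. That is 44.4% higher and 48.1% lower, beside 32.4% and 56.4% of the 15977 named genes of this kind. For 18 of these 27 genes the difference was under 2-fold with every drug.

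**Figure D2:**
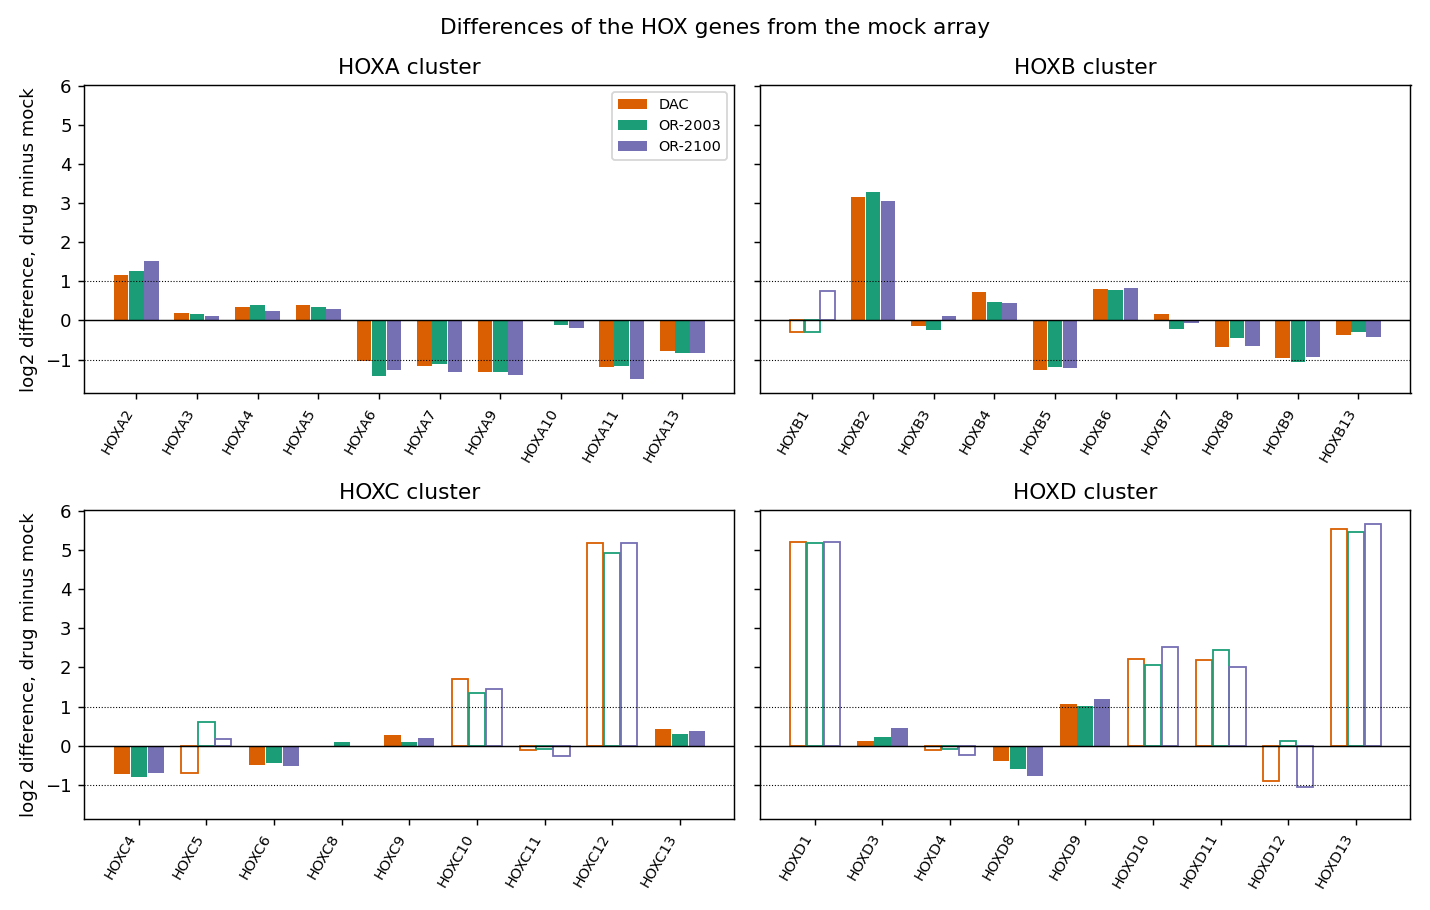
Log2 difference of each HOX gene from the mock array (vertical axis, drug minus mock) with DAC, OR-2003 and OR-2100, by cluster in order of gene number, 1 array per condition and no error bars. Filled bars are genes well above background on all 4 arrays, open bars are genes that were not on at least 1 array, whose height depends on a dim value, and dotted lines mark 2-fold. In this scaling the HOXA bars of HOXA2 to HOXA5 point up and those of HOXA6 to HOXA13 point down or lie near 0, and in HOXD the tall bars are open.

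The HOXD cluster held the fewest genes above background in mock cells and 2 of the 3 induced genes. HOXD1, the member of the cluster that acts nearest the head, was at -5.22 on the mock array, where it was not well above background. It was at -0.02 with DAC, -0.03 with OR-2003 and -0.02 with OR-2100. The 3 drug arrays lay within spot noise of each other and far above the mock array, and the gene was at least 19.2-fold higher with DAC, 19.1-fold with OR-2003 and 19.2-fold with OR-2100. HOXD13, which patterns the digits and the hindgut, was at -5.95 on the mock array and at -0.42, -0.48 and -0.29 with the drugs. Its mock value alone was not well above background, and the lower bounds were 14.6, 14.0 and 16.0-fold.

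The height of these differences depended on how the background was treated. Both genes stayed induced with a normexp correction and with values raised to the background limit. A filter for genes above background on all arrays left both out. With a normexp background correction, which adds an offset and so shrinks differences of dim probes, the log2 differences were 1.70, 1.69 and 1.69 for HOXD1 and 1.58, 1.54 and 1.73 for HOXD13.

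Between the 2 ends of the cluster the HOXD genes differed. HOXD10, a gene of the limb and lower spinal cord, was at -5.43 on the mock array and at -3.21, -3.37 and -2.90 with the drugs. HOXD11, of the forearm and kidney, was at -5.77 on the mock array and at -3.59, -3.33 and -3.76. Both were above background with each drug and not on the mock array, at least 2.11, 1.88 and 2.61-fold higher for HOXD10 and at least 1.62, 1.94 and 1.44-fold higher for HOXD11, and neither reached -1. With the normexp correction neither was 2-fold higher, with log2 differences of 0.17, 0.17 and 0.20 for HOXD10 and 0.03, 0.18 and 0.09 for HOXD11.

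HOXD9 was measured on all arrays, at -2.77 on the mock array and -1.70, -1.76 and -1.57 with the drugs. It was 2.09-fold higher with DAC, 2.01-fold with OR-2003 and 2.30-fold with OR-2100. The other probe of HOXD9 was near the limit of background, at -4.50, -4.04, -3.56 and -4.48 on the mock, DAC, OR-2003 and OR-2100 arrays, and was well above background only with DAC and OR-2003. With the normexp correction the probe used gave 0.30, 0.27 and 0.41.

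Other HOXD genes moved little or could not be seen. HOXD3 was at -1.72 on the mock array and between -1.60 and -1.27 with the drugs. HOXD8 was the only HOXD gene at -1 or more on the mock array, at -0.42, and was lower with all 3 drugs, at -0.81, -1.02 and -1.20. HOXD4 and HOXD12 were not well above background on any array.

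In HOXA, all 10 genes were above background on every array, and the direction split along the cluster. HOXA2 to HOXA5 were each higher with all 3 drugs, and the 5 genes from HOXA6 to HOXA11 were each lower with all 3, except that other scalings turned the small differences of HOXA10 with each drug and of HOXA3 with OR-2003. HOXA2, a hindbrain gene, was at -3.00 on the mock array and at -1.85, -1.74 and -1.49 with the drugs, over 2-fold higher with each and below -1 on all arrays, and by 0.35, 0.37 and 0.45 on the log2 scale with the normexp correction. The differences of HOXA3, HOXA4 and HOXA5 were small, from 0.13 to 0.39 on the log2 scale. With median scaling the difference of HOXA3 with OR-2003 turned to -0.05.

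HOXA9, a gene of trunk and blood progenitors that KMT2A activates, was at 5.88 on the mock array and at 4.58, 4.57 and 4.48 with the drugs. The 3 drug arrays were close together and all below the mock array, by 1.30, 1.31 and 1.40 on the log2 scale. It had 4 probes. A pair of the other probes gave differences of -1.25 to -1.69 over the drugs, and the last probe gave -0.43, -0.26 and -0.53, so the probes differed in size and shared the direction.

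HOXA7, a neighbour of HOXA9, was at 4.20 on the mock array and at 3.05, 3.09 and 2.90 with the drugs. HOXA6 was at -0.04 on the mock array and at -1.07, -1.45 and -1.30. HOXA11, which shapes limb, kidney and uterus, was at 0.13 on the mock array and at -1.06, -1.04 and -1.38. All 3 genes had their highest level on the mock array, and HOXA6 and HOXA11 went from above -1 to below it with each drug. Their log2 differences lay between -1.03 and -1.51, near the 2-fold threshold, and none of the reduced HOX genes was 4-fold lower. With the normexp correction HOXA6, at -0.68, -0.92 and -0.83, and HOXA11, at -0.86, -0.84 and -0.996, were no longer 2-fold lower.

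HOXA10 and HOXA13 stood apart from these neighbours in size. HOXA10, active in the uterus and the posterior trunk, was at 3.97 on the mock array and at 3.94, 3.85 and 3.76 with the drugs, and its sign turned with the scaling. Its other probe gave -0.44, -0.43 and -0.55. HOXA13, a gene of the hindgut and digits, was at 0.25 on the mock array and at -0.52, -0.58 and -0.58 with the drugs, lower with all 3 and short of 2-fold.

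HOXB2 was the largest difference among the HOX genes that were measured on all arrays. This hindbrain gene was at -0.62 on the mock array and at 2.54, 2.68 and 2.44 with the drugs, which is 8.92, 9.80 and 8.33-fold higher. This rests on 1 of its 2 probes. The probe used was the dimmer of the 2 on the mock array and the brighter with the drugs. Its higher mean signal, by which it was chosen, thus came from the drug arrays. The other probe was at 1.29 on the mock array and at 1.18, 1.08 and 1.13 with the drugs, a log2 difference of -0.11, -0.21 and -0.16. The mean of both probes was higher by 1.52, 1.54 and 1.45 on the log2 scale. Which transcript each probe reads was not tested.

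The HOXB genes of the trunk went in both directions. HOXB5, a gene of gut and lung development, was reduced, from 3.34 on the mock array to 2.08, 2.14 and 2.12 with the drugs. Its neighbour HOXB6 was higher with all 3 drugs, from 4.73 on the mock array to 5.53, 5.51 and 5.55, short of 2-fold. HOXB4, known from blood stem cells, was at 1.53 on the mock array and at 2.24, 1.99 and 1.98 with the drugs.

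HOXB9, often high in colon cancer, was at 5.31 on the mock array and at 4.34, 4.26 and 4.37 with the drugs. The differences of -0.96, -1.05 and -0.94 lay on both sides of the 2-fold threshold, and the 3 drug arrays differed from each other by about the spot noise. HOXB8 was lower with all 3 drugs, by 0.44 to 0.67 on the log2 scale in size, and HOXB13, a marker of prostate and distal colon, was at 2.67 on the mock array and between 2.26 and 2.37 with the drugs. HOXB3 and HOXB7 had differences from -0.24 to 0.18, with no common sign. HOXB1 was not well above background on any array.

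In HOXC no gene was induced or reduced by the rule. HOXC12, the gene next to HOXC13 at the posterior end, missed it narrowly, and is singled out here after its values were seen. It was at -6.23 on the mock array, not well above background, and at -1.04, -1.30 and -1.06 with the drugs. The 3 drug arrays were all well above the mock array, at least 9.46, 7.90 and 9.34-fold, and lay just under -1. With the normexp correction its log2 differences were 1.00, 0.91 and 0.96.

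HOXC10, a gene of the hindlimb and lumbar spinal cord, was at -4.20 on the mock array and at -2.49, -2.86 and -2.76 with the drugs, at least 3.28, 2.54 and 2.71-fold higher, and by 0.31, 0.13 and 0.20 on the log2 scale with the normexp correction. HOXC4 was lower with all 3 drugs, from 1.21 on the mock array to 0.48, 0.42 and 0.53, and HOXC6 by 0.50, 0.45 and 0.51 in size from 2.45, neither by 2-fold. HOXC8 was at -0.80 on the mock array and within 0.10 of it with each drug on the log2 scale, with a sign that turned with the scaling. HOXC9 was at 3.34 and between 3.43 and 3.60 with the drugs, and HOXC13, a gene of hair and nail, was at -1.43 and between -1.13 and -1.01. HOXC5 and HOXC11 were not well above background on any array.

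Counted without the level threshold, 9 of 38 HOX genes were at least 2-fold higher with all 3 drugs (23.7%), where 11.8% of all named genes were. Taken by drug, 14.1%, 14.8% and 13.5% of all named genes were, and 9 HOX genes with each drug. They were HOXA2, HOXB2, HOXC10, HOXC12, HOXD1, HOXD9, HOXD10, HOXD11 and HOXD13. In 6 of the 9 the mock value was not well above background, so the size of the difference there depends on a dim value. With the normexp correction, only HOXB2, HOXD1 and HOXD13 of the 9 were 2-fold higher with all 3 drugs. HOXA2 and HOXD9, above background on all arrays, then gave 0.35 to 0.45 and 0.27 to 0.41 on the log2 scale. The share of all named genes without the level threshold is not given for that setting. Of the 11 HOX genes not well above background in mock cells, 6 were above it with all 3 drugs (54.5%), against 19.5% of the 8041 named genes that were dim on the mock array. They were HOXC10, HOXC12, HOXD1, HOXD10, HOXD11 and HOXD13. With the normexp correction HOXC10, HOXD10 and HOXD11 differed from the mock array by only 0.03 to 0.31 on the log2 scale. HOXC10 was at -4.20 on the mock array, where the lowest signal well above background was -4.29.

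**Figure D3:**
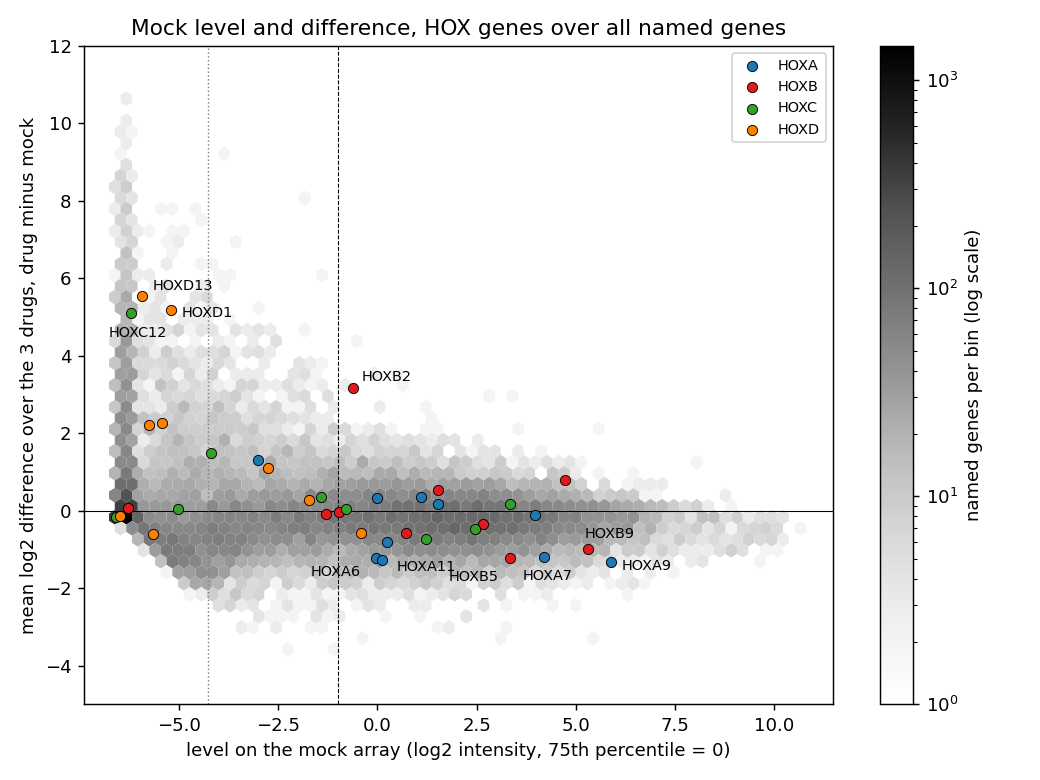
Mean log2 difference over the 3 drugs (vertical axis, drug minus mock) against the level on the mock array (horizontal axis, log2 intensity with the 75th percentile at 0) for the 38 HOX genes as coloured points by cluster, over all 25006 named genes as grey bins whose shade gives the number of genes on a log scale. The dashed line marks -1 and the dotted line the lowest signal well above background on the mock array. The large positive differences of HOXD1, HOXD13 and HOXC12 lie left of the dotted line, where mock values are bounds, HOXB2 lies right of the dashed line, and the reduced genes lie around -1.2 on the vertical axis.

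Set side by side, the clusters had 0 induced and 4 reduced genes of 10 in HOXA, 1 and 1 of 10 in HOXB, 0 and 0 of 9 in HOXC and 2 and 0 of 9 in HOXD, with all 3 drugs. The median log2 difference with DAC was -0.40 in HOXA, -0.22 in HOXB, 0.00 in HOXC and 1.07 in HOXD. With OR-2003 the medians were -0.47, -0.26, 0.10 and 1.01, and with OR-2100 they were -0.52, 0.03, 0.17 and 1.20. HOXA was the lowest and HOXD the highest with each drug. Of the HOXD genes 6 of 9 were dim on the mock array, and over the 3 above background on all arrays the median was 0.12, 0.23 and 0.46. The HOXD medians over all 9 were the values of HOXD9, which gave 0.30, 0.27 and 0.41 with the normexp correction. With that correction the middle HOXD genes were HOXD11, HOXD10 and HOXD3, at 0.03, 0.17 and 0.12. The middle HOXC gene was then HOXC8, at 0.01, 0.08 and -0.07, so the height of the HOXD medians depended on the background treatment. Paralogues did not move as a block. In group 9, HOXA9 was reduced, HOXB9 was near the threshold, HOXC9 was within 0.27 of the mock array and HOXD9 was higher.

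The 3 drugs were compared at the same dose and time over the 27 HOX genes above background on all arrays. In none of the 3 pairs was any of these genes 2-fold apart. The largest differences were 0.39 for HOXB7 between DAC and OR-2003, 0.40 for HOXD8 between DAC and OR-2100 and 0.36 for HOXB3 between OR-2003 and OR-2100, on the log2 scale and in size. The SD of the differences over these genes was 0.15, 0.18 and 0.17 for the 3 pairs, beside 0.17, 0.19 and 0.20 over 15977 named genes, of which 0.0563%, 0.113% and 0.269% were 2-fold apart. With 1 array per drug, an interval for any of these differences could not be given, and small differences between the drugs cannot be told apart from differences between cultures.

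The clusters also hold other transcripts, mostly long noncoding RNAs, some antisense to a HOX gene. Of 20 listed, 18 were on the array, and 6 were induced and 2 reduced by all 3 drugs, with a median log2 difference of 0.33, 0.32 and 0.13. That is 33.3% induced and 11.1% reduced, beside 5.27% and 5.21% of all named genes. The list includes PRAC1 and PRAC2, which RefSeq gives as protein coding. HAGLROS, which lies between HOXD3 and HOXD1, was at -6.07 on the mock array and at 0.50, 0.35 and 0.24 with the drugs, at least 27.6, 24.8 and 23.0-fold higher. HAGLR, which overlaps HOXD1, was at -4.66 on the mock array and at -2.12, -1.88 and -1.76 with the drugs, at least 4.49, 5.29 and 5.75-fold higher. PRAC1, a small protein known from prostate and distal colon and coded between HOXB9 and HOXB13, was at -5.77 on the mock array and at -0.42, -0.45 and -0.53 with the drugs, at least 14.6, 14.3 and 13.5-fold higher.

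HOXB-AS1, which overlaps HOXB2 and HOXB3, was at -0.51 on the mock array and at 1.52, 1.60 and 1.40 with the drugs. Its other probe was higher too, by 1.81, 1.81 and 1.87 on the log2 scale. So around HOXB2, both probes of the antisense transcript and 1 of the 2 HOXB2 probes were higher with all 3 drugs, while HOXB3 differed by -0.15, -0.24 and 0.12. HOXA-AS3, which overlaps HOXA3, HOXA5, HOXA6 and HOXA7, was higher by 1.98, 2.02 and 1.83, where HOXA6 and HOXA7 were reduced. HOXC-AS3, which overlaps HOXC10, was higher by 1.81, 1.99 and 1.87, and HOXC13-AS by 1.73, 1.83 and 1.97.

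The reduced transcripts were HOXA10-AS and HOXC-AS1. HOXA10-AS, which overlaps HOXA10 and lies between HOXA9 and HOXA11, was at 4.14 on the mock array and at 2.73, 2.72 and 2.57 with the drugs. HOXC-AS1 was at 1.09 on the mock array and at -0.23, -0.09 and -0.39. HOTAIR, a HOXC transcript known for acting on HOXD, was at -2.69 on the mock array and between -3.14 and -2.76 with the drugs, and HOTTIP, at the end of HOXA, was not well above background on any array. HOTAIRM1, at the other end of HOXA, was at 4.18 and at 4.64, 4.59 and 4.59 on its brightest probe. Another of its 3 probes was higher by 0.96, 1.02 and 0.90 on the log2 scale, and the last by 0.18, 0.36 and 0.30. Genes that overlap can share sequence, and which strand a probe reads was not tested.

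**Figure D4:**
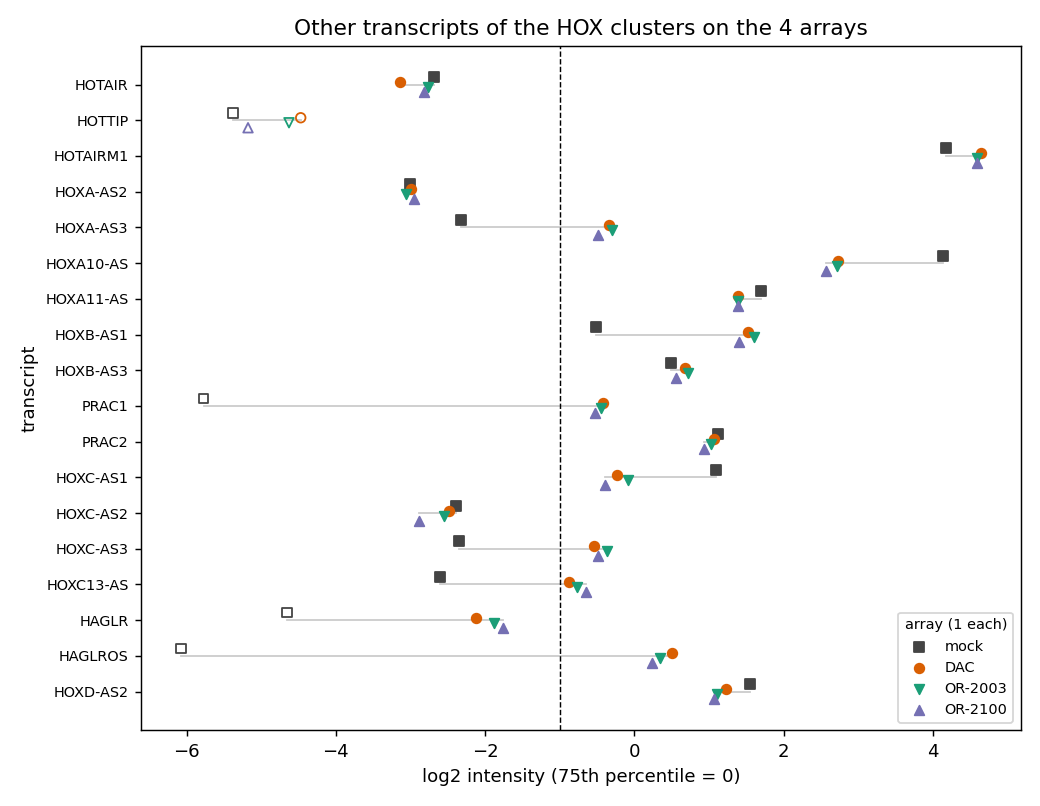
Level (horizontal axis, log2 intensity with the 75th percentile of each array at 0) of the 18 other listed transcripts of the HOX clusters (vertical axis) on the mock, DAC, OR-2003 and OR-2100 arrays, 1 point per array, filled where well above background and open where not. The dashed line marks -1 and grey lines join the lowest and highest array. HAGLROS and PRAC1 go from open points near -6 on the mock array to levels above -1 with all 3 drugs, and HOXA10-AS and HOXC-AS1 have their highest level on the mock array.

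Among the TALE partners, 10 of 11 were on the array, and 1 was induced by all 3 drugs (10%, beside 5.27% of all named genes). PBX3, a DNA-binding partner of HOX proteins, was the induced gene, with differences of 1.16, 1.04 and 1.07, and its other probe gave 0.60, 0.61 and 0.44. PBX4 was higher by 0.69, 0.93 and 1.06, and TGIF1, a repressor of the same class, was lower on 1 of its 2 probes, by 0.84, 0.95 and 0.99 in size. MEIS1 was not well above background on any array.

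Of 31 Polycomb genes, 0 were induced and 2 were reduced by all 3 drugs, PCGF1 and CBX6. The share reduced was 6.45%, beside 5.21% of all named genes, and 5.27% of all named genes were induced. At -1 or more on the mock array were 30 of the 31, and of all named genes at that level 10.8% were reduced by all 3 drugs. PCGF1, of a variant repressive complex, was at 2.77 on the mock array and at 1.65, 1.60 and 1.68 with the drugs. CBX6, a reader of the repressive mark, was at 6.83 on the mock array and at 5.70, 5.75 and 5.74. PCGF2 gave differences of -1.38, -1.41 and -1.36, with a mock level of -1.15 just under the level threshold, and EZH1, one of the enzymes that write the mark, gave -1.27 and -1.01 with DAC and OR-2003 and was just short of 2-fold with OR-2100. EZH2 was at 3.69 on the mock array and between 3.26 and 3.43 with the drugs. All 31 were above background on all arrays, and their median log2 difference was -0.46, -0.42 and -0.43, beside -0.18, -0.17 and -0.21 over the named genes above background on all arrays and -0.26, -0.26 and -0.32 over those at a mock level of 2 or more.

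Of 20 genes of the KMT2A and COMPASS complexes and their partners, which act on active HOX genes, 1 was induced and 1 reduced by all 3 drugs. That is 5% each, beside 5.27% induced and 5.21% reduced of all named genes. On the mock array 17 of the 20 were at -1 or more, and of all named genes at that level 10.8% were reduced by all 3 drugs. The median log2 difference was 0.08, 0.07 and 0.04. The induced gene was DOT1L, a methyltransferase that KMT2A fusions recruit to HOXA9, by 1.60, 1.65 and 1.62 on 1 probe and by 0.41, 0.28 and 0.45 on the other. The probe with the larger difference was the dimmer on the mock array, at -0.78 against 0.09. The reduced gene was PSIP1, which tethers KMT2A to chromatin, from 5.13 on the mock array to 4.04, 4.05 and 3.71. KMT2D, an enhancer methyltransferase, was lower by 0.66, 0.59 and 0.61 in size. KDM6A, which removes the Polycomb mark, was higher by 0.66, 0.54 and 0.54, and its other probe was lower. KMT2A itself was at 3.78 on the mock array and between 3.88 and 3.97 with the drugs.

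Of 12 HOX-related homeobox genes outside the clusters or next to them, 1 was induced, GBX2, a gene of the midbrain border. That is 8.33%, beside 5.27% of all named genes, and the median log2 difference was -0.09, -0.05 and -0.16. GBX2 was at -0.12 on the mock array and at 1.96, 1.85 and 1.90 with the drugs. CDX2, an intestinal regulator of HOX genes, was at 2.59 on the mock array and at 2.94, 2.74 and 2.80. GSX1 gave differences of -0.30, -0.37 and -0.42. EVX2, the neighbour of HOXD13, was well above background on the mock array only, at -4.21, and EVX1, at the posterior end of HOXA, was at 3.98 there and between 3.79 and 4.07 with the drugs.

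All 5 listed markers of epithelium in general (EPCAM, CDH1, KRT8, KRT18 and KRT19), which do not tell colon from other epithelia, were well above background on all arrays. EPCAM and CDH1 were reduced with all 3 drugs, by 1.46 to 1.52 and by 1.09 to 1.25 on the log2 scale in size. The keratins were higher with all 3 drugs, short of 2-fold, KRT8 by 0.59, 0.59 and 0.47 on its brightest probe (1 of its 3 probes gave -0.18, -0.07 and -0.08), KRT18 by 0.59, 0.52 and 0.46 and KRT19 by 0.38, 0.31 and 0.32. Of 5 markers of other cell types, 1 was induced (20%, beside 5.27% of all named genes). VIM, of mesenchyme, was at 0.71 on the mock array and between 6.84 and 6.98 with the drugs, PECAM1, of endothelium, was at least 8.40-fold higher with each and below -1, and COL3A1 was not well above background on any array. PTPRC, of blood cells, gave -0.31, -0.27 and -0.16 on its brightest probe and 3.36, 2.80 and 3.46 on another of its 5 probes, which was above background with the drugs only, and COL1A1 was higher by 0.77 to 0.90. The part of these changes in the HOX differences was not tested, and a change in the share of cells that express a gene cannot be told apart from a change per cell. UCHL1, whose promoter drives the reporter, was at least 1907-fold higher with DAC, 2126-fold with OR-2003 and 2007-fold with OR-2100. The arrays were on 1 slide, between 31601 and 33282 of 58201 probes were well above background on them, and the median difference of the probes above background on all arrays was -0.21, -0.19 and -0.23, relative to which the differences above can be read.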

How the data were processed

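Expression of HML58-3 cells was measured on one-colour SurePrint G3 Human GE 8x60K v3 arrays, 1 array for each of mock, DAC, OR-2003 and OR-2100. The authors deposited the scanner intensity of the spots, background-corrected in Agilent Feature Extraction 12.1.0.3 (per the file headers), with no scaling of 1 array to another. Their series table repeats these intensity values. Control spots and spots marked as outliers were left out, 98, 81, 52 and 82 marked spots on the mock, DAC, OR-2003 and OR-2100 arrays, and the spots of a probe were averaged. Values were taken to log2 and scaled so that each array had its 75th percentile over gene probes, an intensity of 152 to 176, at 0. Of the probes, 34892 were named through RefSeq accessions (GRCh38.p14), since the files give no symbols, and the position and sequence of a probe were not used here. The probe with the highest mean signal stood for a gene. RefSeq gave the promoter windows.

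The thresholds were 2-fold and a level of -1. A probe counted as well above background if the software called over 0.5 of its unmarked spots so, and a lower bound used the higher of the probe's own signal and the lowest signal of a probe well above background on the mock array. All 38 members were accounted for. Members with a difference of 2-fold or more with all 3 drugs and a level of -1 or more on an array were given in full, then members above background on all arrays, and from each related list up to 4 genes with the largest mean difference; other list genes named, such as KMT2A, EZH2 or HOTAIR, were chosen after their values were seen. The result of 1 gene of a related list is not reported here. The members and lists were chosen with earlier results of these data known. Precision is limited by the number of arrays. The counting was tested on simulated data. Alternatives were a normexp correction (offset 50, limma 3.58.1, R 4.3.3), quantile normalization, other scaling, the series table, marked spots kept, a floor at background, the mean of probes, a 4-fold threshold, no level threshold and a filter on dim probes. Python 3.11.15, numpy 2.4.6, pandas 2.3.3 and matplotlib 3.10.9 were used.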

Additional observations from a re-analysis of the deposited data

How the results depend on the processing

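Of 11 alternatives, the series table, which holds the same values, and keeping the marked spots changed no count of induced or reduced HOX genes. HOXB2 (on 1 of its 2 probes), HOXD1 and HOXD13 were induced by all 3 drugs in the main setting, and the count with all 3 was 3 under 9 of the 11 alternatives. Without the level threshold the count of induced genes was 9 with each drug and with all 3, and among genes above background on all arrays it was 1 in each case. With the 75th percentile of probes above background it was 5 with OR-2100 and 4 with DAC, and with quantile normalization it was 4 with OR-2100. The count of reduced genes was 5 with all 3 drugs. It was 3 with DAC, OR-2100 and all 3 under normexp, where HOXA6 and HOXA11 fell short, and with the 75th percentile of probes above background it was 2 with DAC, 2 with OR-2003, 4 with OR-2100 and 1 with all 3. Median scaling raised the count to 6 with DAC, 8 with OR-2003, 6 with OR-2100 and 6 with all 3. At a 4-fold threshold it was 0 with each drug and with all 3. The median difference of the 38 genes lay near 0 and moved with the setting. With DAC it was 0.19 with the percentile of probes above background and -0.13 with median scaling. With OR-2003 it was 0.30 and -0.13 in the same order, -0.028 with normexp, -0.10 with values raised to the background limit and -0.21 for genes above background on all arrays. With OR-2100 it was 0.34 with the percentile of probes above background, -0.069 with normexp, -0.031 with the background limit and -0.062 for genes above background. The cause was not tested, beyond the fewer genes that a filter leaves. For the 10 genes HOXA6, HOXA7, HOXA9, HOXA11, HOXB2, HOXB5, HOXB9, HOXC12, HOXD1 and HOXD13, 240 single differences were recomputed, 143 moved by less than the spot noise, 97 moved by more and 0 changed sign. Many of the 143 were fixed in advance and do not show stability. The 0 changes of sign do not show it either, since all 10 genes had differences of about 2-fold or more. The series table and keeping the marked spots repeated the main value for all 10 genes. So did the mean of probes for genes with 1 probe, and the background limit for genes measured on every array. Among the other genes above background on all arrays, small differences of HOXA3, HOXA10, HOXB3, HOXB7, HOXC8, HOXC9 and HOXD3 changed sign with at least 1 drug and setting. No paired analysis was possible because there was only 1 array for a condition and thus no test, and for the same reason no array could be left out. Low signal limits HOXD and HOXC most, where mock values were below background.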
